A study of Mus musculus with 6 samples.

Results

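The interferon response genes examined here are a list of 36 genes, of which 33 were measured among the 20259 genes of the arrays. A member had to have an array row naming its symbol alone, and of several such rows the one of highest mean was taken. Ifi44, Oas1a and Oas3 had no row naming them alone and were not analysed. Of the 33, 15 are antiviral effectors, 5 are transcription factors, 5 belong to antigen processing, 5 to the ISG15, PARP and XAF1 genes, and 3 are sensors or sensor ligases.

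The arrays measured RNA of pancreas cells sorted by FACS for GFP, on 3 arrays from KCiMist1G mice with p120wt/wt (wild type) and 3 from KCiMist1G mice with p120f/f (knockout). Mice of both groups received tamoxifen at 7 to 9 weeks of age to activate Cre recombinase, and cells were collected 2 weeks later. The labels do not spell out KCiMist1G. In the published model of that name, which is background knowledge and not in the labels, a tamoxifen-inducible Cre expressed from Mist1, an acinar cell gene, switches on a GFP reporter in both groups alike. The comparison asks how loss of p120 catenin, an adherens junction protein, changes the transcriptome of this preinvasive cancer model. The labels call the replicates biological and leave it unsaid if each came from 1 mouse, so the p-values describe the spread between the labelled samples.

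Interferons are secreted proteins that cells make after sensing foreign or misplaced nucleic acid. Type I interferons signal through JAK kinases to a complex that holds STAT2 and IRF9 and binds a DNA element called ISRE, and interferon gamma acts through an element called GAS. The genes so induced encode antiviral proteins, the ISG15 protein modifier, further transcription factors and the machinery that presents peptides on MHC class I. Epithelial cells and leukocytes both carry this response.

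The promoter windows of 6 genes are shown because these genes hold the largest differences in either direction or the 1 unadjusted call. Each window runs from 250 bases before to 50 bases after the annotated start (RefSeq, GRCm38.p6), on the gene's strand, and capitals mark every match to the ISRE core (GAAA, any 2 bases, GAAA) or to the GAS letters (TTC, any 3 bases, GAA) on either strand. Ifit3, at chr19:34583279-34583578 (+), has 2 ISRE matches, and Ifit1, at chr19:34640639-34640938 (+), has 2. Gbp2, at chr3:142620413-142620712 (+), has 1 ISRE match. Isg15, at chr4:156200769-156201068 (-), has 3 of which neighbours overlap, and Bst2, at chr8:71537423-71537722 (-), has 2 that overlap each other and a GAS match that overlaps the first of them. Irf1, at chr11:53769764-53770063 (+), has 1 GAS match and no ISRE match in this window.
Ifit3: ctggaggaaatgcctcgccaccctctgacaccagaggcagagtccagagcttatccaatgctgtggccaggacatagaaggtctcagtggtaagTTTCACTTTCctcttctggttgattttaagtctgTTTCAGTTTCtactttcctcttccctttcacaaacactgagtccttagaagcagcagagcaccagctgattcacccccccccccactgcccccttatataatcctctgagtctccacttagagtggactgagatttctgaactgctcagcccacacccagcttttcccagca
Ifit1: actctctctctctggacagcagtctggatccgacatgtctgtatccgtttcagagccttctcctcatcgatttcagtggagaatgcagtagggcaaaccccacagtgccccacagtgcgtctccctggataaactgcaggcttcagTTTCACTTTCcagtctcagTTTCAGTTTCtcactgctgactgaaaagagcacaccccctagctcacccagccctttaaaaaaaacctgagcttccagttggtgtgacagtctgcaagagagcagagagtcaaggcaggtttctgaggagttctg
Gbp2: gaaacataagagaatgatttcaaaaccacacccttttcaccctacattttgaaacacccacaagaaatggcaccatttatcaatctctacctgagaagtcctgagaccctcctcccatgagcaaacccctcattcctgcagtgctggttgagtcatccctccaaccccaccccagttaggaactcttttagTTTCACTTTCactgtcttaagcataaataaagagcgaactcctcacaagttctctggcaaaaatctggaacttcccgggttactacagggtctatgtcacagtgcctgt
Isg15: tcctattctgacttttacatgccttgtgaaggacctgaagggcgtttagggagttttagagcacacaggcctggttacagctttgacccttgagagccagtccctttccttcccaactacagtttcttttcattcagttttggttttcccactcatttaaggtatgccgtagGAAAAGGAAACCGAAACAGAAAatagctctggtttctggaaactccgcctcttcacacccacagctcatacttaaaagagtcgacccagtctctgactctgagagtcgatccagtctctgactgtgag
Bst2: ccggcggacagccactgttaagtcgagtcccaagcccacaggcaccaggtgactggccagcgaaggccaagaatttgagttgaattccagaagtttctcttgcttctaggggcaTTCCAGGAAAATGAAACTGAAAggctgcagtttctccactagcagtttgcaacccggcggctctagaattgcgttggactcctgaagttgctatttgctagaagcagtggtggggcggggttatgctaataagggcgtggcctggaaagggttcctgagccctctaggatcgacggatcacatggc
Irf1: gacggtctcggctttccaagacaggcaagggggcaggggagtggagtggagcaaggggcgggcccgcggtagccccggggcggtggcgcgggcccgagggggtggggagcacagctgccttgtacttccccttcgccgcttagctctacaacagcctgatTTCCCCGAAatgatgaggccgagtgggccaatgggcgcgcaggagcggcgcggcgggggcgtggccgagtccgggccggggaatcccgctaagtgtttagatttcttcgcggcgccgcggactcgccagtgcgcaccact

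Across the list, 27 of the 36 genes had a promoter in the RefSeq table, and 11 of these 27 (40.7%) held the ISRE core, against 3.99% of the 27025 genes with a promoter. The GAS letters were in the promoters of 7 of the 27 (25.9%), against 9.55% of all genes. The 9 measured members with an ISRE core were Ifit1, Ifit3, Ifih1, Isg15, Stat2, Rsad2, Bst2, Gbp2 and Gbp3. Their knockout minus wild-type differences ran from -0.64 (Ifit3) to 0.36 (Bst2), with 6 lower and 3 higher on the knockout arrays. A match is a description of these letters and not evidence of a bound site.

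No interferon response gene differed between the genotypes past the adjusted threshold. Irf1, a transcription factor induced by interferon gamma, was the 1 member of 33 with an unadjusted p under 0.05, and it was lower on the knockout arrays. By the labels' direction 23 members were lower and 10 higher in knockout, from Ifit3 at -0.64 to Bst2 at 0.36 on the log2 scale, but for all 33 the arrays of at least 1 group spanned a wider range than the groups differed by, as for 96.0% of all genes. The clearest pattern lay in single arrays: 30 of 33 members had their highest wild-type value on array 3 (30.8% of all genes did), and 27 of 33 had their highest knockout value on array 1 (28.6% of all genes did).

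The test was limma on RMA log2 values of all 20259 genes, with Benjamini-Hochberg adjustment. It called 0 members and 0 genes in all (0%) at an adjusted p under 0.05, and the smallest adjusted p of a member was 0.907. At an unadjusted p under 0.05 it gave 708 genes (3.49%), 241 of them lower (1.19%) and 467 higher (2.31%) in knockout. The single member among them, 1 of 33, was near that background. Of all genes 38.3% were lower in knockout. The median member difference was -0.12, beside a median of 0.05 over all genes, and shifting the arrays to 1 median put 28 of the 33 members and 56.9% of all genes lower.

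**Figure D1:**
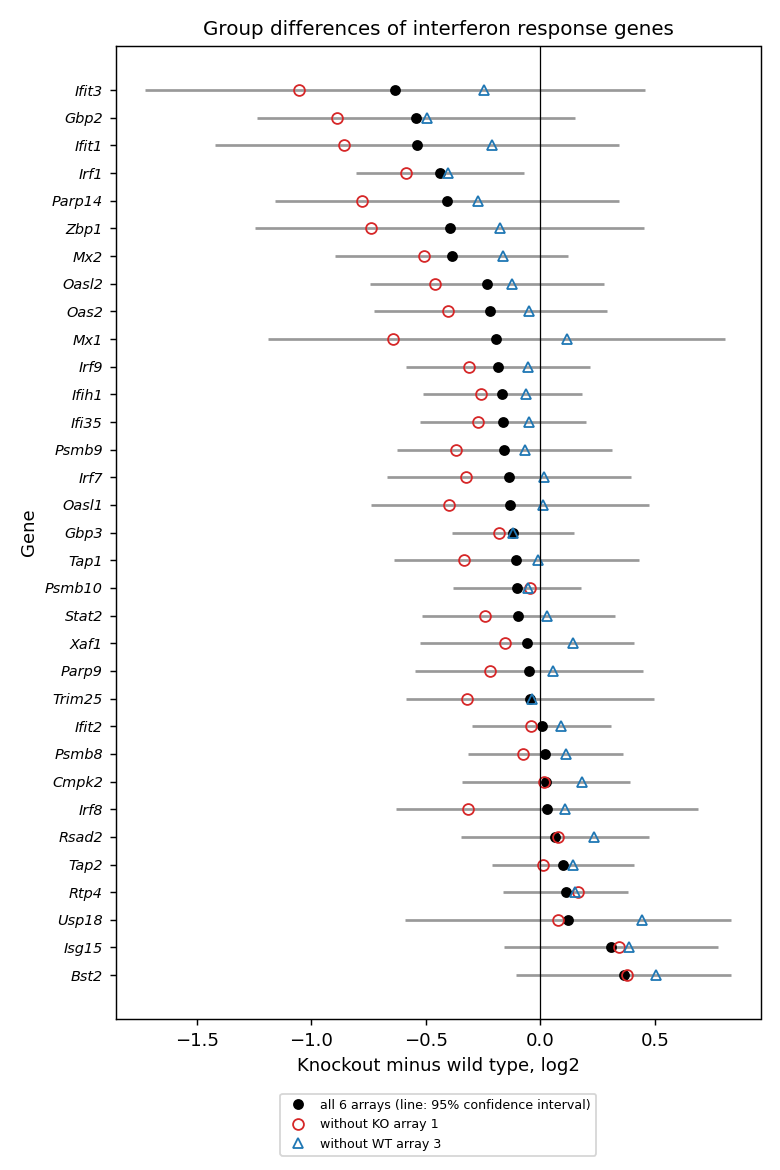
Knockout minus wild-type difference (log2, x axis) of each of the 33 interferon response genes (y axis), with the 95% confidence interval from limma; red circles leave out knockout array 1 and blue triangles leave out wild-type array 3. The interval of 32 members includes 0, and the red circles have a median of -0.31. The blue triangles have a median of -0.01, with the 10 members already higher in knockout further above 0.

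Several facts of the series touch these values. Ctnnd1, which encodes p120, ranged from 5.61 to 6.61 in knockout and from 5.87 to 6.81 in wild type, so the values did not show its loss, and every direction here is that of the labels. Whether the Ctnnd1 row reads the deleted exons was not tested. Xist, expressed from the inactive X chromosome of female cells, lay between 9.97 and 11.40 on knockout array 3 and wild-type arrays 1 and 2, and between 3.56 and 3.98 on the other arrays, so the groups were not balanced for sex. Of 8 acinar markers, the enzyme genes Cpa1, Cel, Cela1 and Ctrb1 lay between 11.68 and 13.85 on every array. The acinar factors Rbpjl and Bhlha15 were lowest on knockout array 1, at 8.26 and 8.61, and Nr5a2 lay between 5.67 and 6.69 over the 6 arrays. The leukocyte gene Ptprc was measured between 8.38 and 9.92.

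Leukocyte markers stood apart on the same knockout array. The mean of 40 leukocyte markers was 7.70 on knockout array 1 and 6.63 and 6.64 on knockout arrays 2 and 3, against 7.27 to 7.48 in wild type. Of the 40, 37 were lower in knockout, 2 of them at an unadjusted p under 0.05, against 38.3% of all genes lower and 1.19% lower at that p. In RNA of a sorted population, fewer cells of a type and less RNA per cell cannot be told apart. The part of these markers in the interferon gene values was not tested.

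Among the transcription factors, Irf1 separated the groups. It measured 7.55, 7.19 and 7.04 on the knockout arrays and 7.70, 7.62 and 7.78 on the wild-type arrays. Every knockout array lay below every wild-type array, with means of 7.26 ± 0.27 and 7.70 ± 0.08 (SD, n = 3). The difference was -0.44 (SE 0.16, 95% confidence interval -0.81 to -0.07), with an unadjusted p of 0.0248 and an adjusted p of 0.907 in limma. The exact two-sided permutation p was 0.1, the smallest that 3 arrays against 3 can give. Leaving out single arrays moved the difference between -0.59 (without knockout array 1) and -0.33 (without knockout array 3). Irf1 was the only member with all knockout arrays below all wild-type arrays, where 2.47% of all genes were so placed.

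The other transcription factors of the list did not separate the groups. Stat2 and Irf9, which encode parts of the ISRE-binding complex, differed by -0.10 (SE 0.18) and -0.18 (SE 0.17). Irf7, which amplifies type I interferon production, differed by -0.14 (SE 0.23), and its other array row differed by 0.14. Irf8, a factor of myeloid and B cells, measured 7.68, 6.72 and 6.58 on the knockout arrays and 6.83, 6.95 and 7.12 on the wild-type arrays. Its group difference was 0.03 (SE 0.28), with -0.31 without knockout array 1 and 0.23 without knockout array 3. Knockout array 1 alone was above all wild-type arrays for Irf8, as it was for the mean of the leukocyte markers.

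The antiviral effectors held the largest differences. Ifit3, of the IFIT proteins that bind viral RNA and inhibit its translation, measured 8.83, 7.98 and 7.18 in knockout and 8.28, 8.20 and 9.41 in wild type. Ifit1, which recognises RNA lacking the cap methylation of host messages, measured 6.36, 5.24 and 5.57 in knockout and 5.68, 6.18 and 6.92 in wild type. The groups overlapped for both genes. The difference was -0.64 (SE 0.47, adjusted p = 0.907 in limma) for Ifit3 and -0.54 (SE 0.38, adjusted p = 0.907 in limma) for Ifit1. Without wild-type array 3 they were -0.25 and -0.21, and without knockout array 1 they were -1.05 and -0.86. Ifit2, the third of these genes, measured 5.11, 4.97 and 4.98 in knockout and 4.85, 5.01 and 5.18 in wild type, a difference of 0.01 (SE 0.13).

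The guanylate-binding proteins are GTPases that attack the membranes around intracellular pathogens and respond strongly to interferon gamma. Gbp2 measured 7.47, 6.69 and 6.19 in knockout and 7.26, 7.30 and 7.43 in wild type. The wild-type arrays were close together and knockout arrays 2 and 3 lay below them, while knockout array 1 lay above them. Its difference was -0.54 (SE 0.30, 95% confidence interval -1.24 to 0.15). Leaving out single arrays moved it between -0.89 (without knockout array 1) and -0.24 (without knockout array 3). Gbp3 measured 6.42, 6.23 and 6.23 in knockout and 6.43, 6.40 and 6.41 in wild type, a difference of -0.12 (SE 0.11).

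Mx1 and Mx2 encode dynamin-like GTPases that block viral nucleocapsids. Mx1 measured 5.98, 4.58 and 4.66 in knockout and 5.16, 4.75 and 5.88 in wild type. Knockout array 1 and wild-type array 3 were high and the other 4 arrays were low. The difference of -0.19 (SE 0.43) became 0.12 without wild-type array 3 and -0.64 without knockout array 1. Mx2 measured 4.84, 4.39 and 4.57 in knockout and 4.74, 4.78 and 5.43 in wild type. Knockout arrays 2 and 3 were below all wild-type arrays, and the difference was -0.39 (SE 0.22). Except on wild-type array 3, Mx2 lay below the array's median over genes (5.37 to 5.50 over the arrays).

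**Figure D2:**
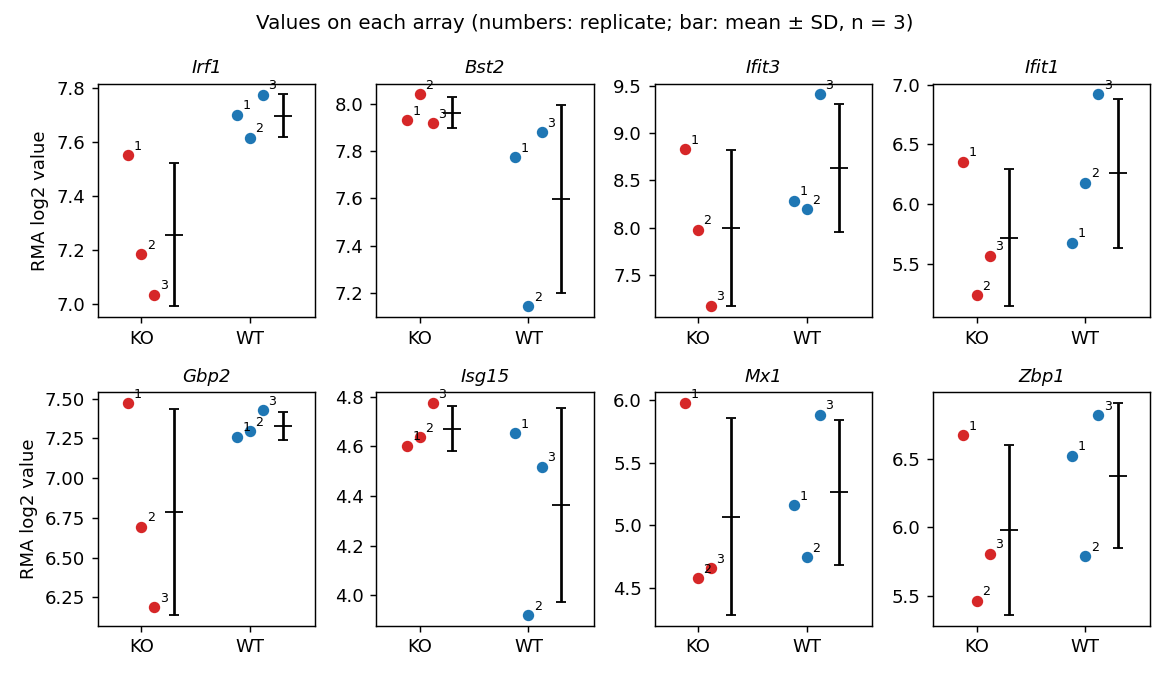
RMA log2 values (y axis) of 8 interferon response genes on each of 3 knockout (KO, red) and 3 wild-type (WT, blue) arrays, with the replicate number beside each point and the mean ± SD as a bar; each panel has its own y axis, which does not start at 0. Irf1 and Bst2 separate the groups, in opposite directions, and the other 6 genes overlap.

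Bst2 ran the other way. It encodes tetherin, which holds budding virus particles at the cell surface, and it measured 7.93, 8.04 and 7.92 in knockout and 7.77, 7.14 and 7.88 in wild type. All knockout arrays lay above all wild-type arrays, although wild-type array 3 was close to them. The difference was 0.36 (SE 0.20, 95% confidence interval -0.11 to 0.83), with an adjusted p of 0.907 in limma and an exact two-sided permutation p of 0.1. Without wild-type array 2 it was 0.14. Of all genes 6.21% had every knockout array above every wild-type array, and Bst2 was 1 member of 33.

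The remaining effectors differed little. Rsad2, which encodes viperin, measured 7.80, 7.998 and 7.68 in knockout and 7.62, 7.57 and 8.10 in wild type, a difference of 0.07 (SE 0.18). Cmpk2, its neighbour on chromosome 12 and a mitochondrial nucleotide kinase, differed by 0.02 (SE 0.16). The Oas genes make a second messenger that activates an RNA-degrading enzyme, or are relatives of those that do. Oas2, Oasl1 and Oasl2 differed by -0.22, -0.13 and -0.23, each with an SE of 0.22 to 0.26. Rtp4, at 0.11 (SE 0.12), and Ifi35, at -0.16 (SE 0.16), completed the effectors. Of these, 10 of 15 were lower in knockout, against 38.3% of all genes.

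Isg15 encodes a ubiquitin-like protein that is attached to other proteins during the interferon response. It measured 4.60, 4.64 and 4.78 in knockout and 4.65, 3.92 and 4.52 in wild type. The knockout arrays were close together and wild-type array 2 was low. The difference was 0.31 (SE 0.20, adjusted p = 0.907 in limma), and 0.09 without wild-type array 2. Isg15 values were low on all arrays, whose medians over genes were 5.37 to 5.50. Usp18, which removes ISG15 and restrains the interferon receptor, measured 7.31, 7.00 and 7.37 in knockout and 7.10, 6.47 and 7.75 in wild type. Its difference was 0.12 (SE 0.30), and wild-type arrays 2 and 3 were its lowest and highest values.

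Parp14, an ADP-ribosyltransferase of the interferon response, measured 7.36, 6.45 and 6.05 in knockout and 6.97, 6.82 and 7.30 in wild type. As for Gbp2, knockout array 1 lay above the wild-type arrays and knockout arrays 2 and 3 below them. The difference was -0.41 (SE 0.32). Leaving out single arrays moved it between -0.78 (without knockout array 1) and -0.13 (without knockout array 3). Parp9 differed by -0.05 (SE 0.21). Xaf1, a pro-apoptotic interferon-induced gene, differed by -0.06 (SE 0.20), while its other row differed by 0.44.

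The sensors were lower in knockout in 3 of 3 cases, against 38.3% of all genes, and none passed the threshold. Zbp1, which senses left-handed nucleic acid and can start necroptosis, measured 6.67, 5.47 and 5.81 in knockout and 6.52, 5.79 and 6.82 in wild type. Knockout arrays 2 and 3 and wild-type array 2 were low. The difference was -0.40 (SE 0.36). Leaving out single arrays moved it between -0.74 (without knockout array 1) and -0.14 (without knockout array 2). Ifih1, which encodes the double-stranded RNA sensor MDA5, differed by -0.17 (SE 0.15). Trim25, a ubiquitin ligase that acts with the RNA sensor RIG-I, measured 8.45, 7.66 and 7.60 in knockout and 8.03, 7.85 and 7.97 in wild type. Its difference was -0.05 (SE 0.23), with -0.32 without knockout array 1 and 0.11 without knockout array 3.

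No antigen processing gene differed by more than 0.16 in either direction. Psmb8, Psmb9 and Psmb10 encode the catalytic subunits that interferon substitutes into the proteasome, and Tap1 and Tap2 carry the resulting peptides into the endoplasmic reticulum. Psmb10 measured 7.92, 8.13 and 8.03 in knockout and 8.12, 8.03 and 8.22 in wild type, a difference of -0.10 (SE 0.12). Psmb9 differed by -0.16 (SE 0.20) and Psmb8 by 0.02 (SE 0.14). Tap1 differed by -0.11 (SE 0.23) and Tap2 by 0.10 (SE 0.13). Psmb5, Psmb6 and Psmb7, the constitutive subunits that these replace, differed by 0.06, 0.05 and -0.08. All 5 processing genes and all 3 constitutive subunits overlapped between the groups, as did most genes. Of all genes only 2.47% had every knockout array below every wild-type array, and 6.21% had every one above.

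The largest structure in the list lay within the groups. Knockout array 1 exceeded the mean of knockout arrays 2 and 3 for 28 of 33 members, with a median of 0.44 and up to 1.36 for Mx1. Over all genes the same contrast had a median of -0.15 and was above 0 for 34.8%. Wild-type array 3 exceeded the mean of wild-type arrays 1 and 2 for 32 of 33 members, with a median of 0.34 and up to 1.17 for Ifit3. Over all genes that contrast had a median of -0.02 and was above 0 for 45.9%. These shares describe single arrays, which have no replicate of their own. Wild-type array 3 was also the only wild-type array low for Xist (3.56, against 11.10 and 11.40 on arrays 1 and 2). In the wild-type contrast, sex and array therefore cannot be told apart. On the knockout arrays Xist was low on arrays 1 and 2 (3.64 and 3.98) and high on array 3 (9.97).

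**Figure D3:**
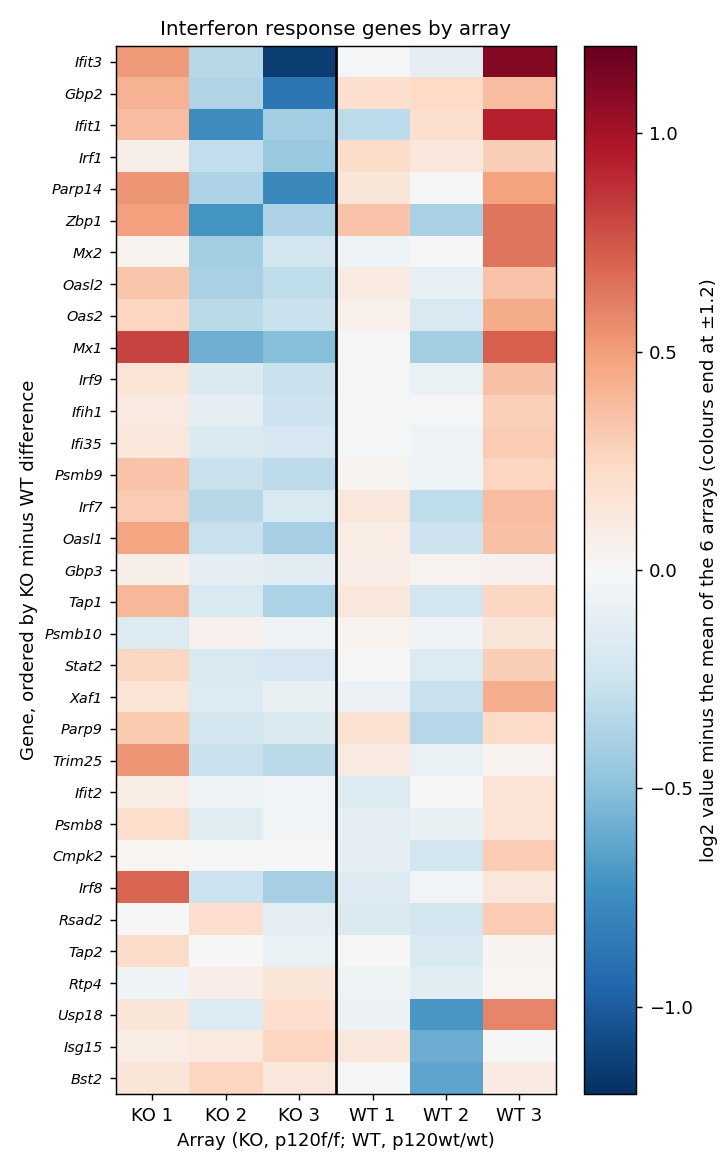
Log2 value minus the mean of the 6 arrays (colour) for each of the 33 interferon response genes (rows, ordered by group difference) on each array (columns; KO, knockout; WT, wild type). Knockout array 1 and wild-type array 3 are red for most genes, and knockout arrays 2 and 3 are blue for most genes.

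The highest of all 6 values was on knockout array 1 or wild-type array 3 for 29 of 33 members, against 27.9% of all genes. The exceptions were Isg15, Bst2, Gbp3 and Rtp4. The lowest value was on knockout array 2 or 3 for 22 of 33, against 26.6% of all genes. Both of these knockout arrays lay below every wild-type array for 18 of 33 members, against 16.8% of all genes. Knockout array 1 lay above every wild-type array for 12 of 33, against 25.7% of all genes.

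Without knockout array 1, 26 members were lower and 7 higher (34.7% of all genes were lower), and 10 had an unadjusted p under 0.05, all lower. In that fit 10.8% of all genes were lower at that level, and 0 members but 0.00987% of all genes passed the adjusted threshold. The 10 were Irf1, Gbp2, Parp14, Oasl2, Trim25, Psmb9, Irf8, Ifit3, Ifit1 and Zbp1, with the smallest limma adjusted p at 0.0582 for Irf1 (-0.59) and 0.0585 for Gbp2 (-0.89). Leukocyte markers had a median difference of -0.70 in the same fit, and the interferon response genes -0.31. Without wild-type array 3, 17 members were lower and 16 higher, and 39.1% of all genes were lower.

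Classes of leukocyte markers ranked the wild-type arrays differently. In the order of replicates 1, 2 and 3, wild-type means were 6.62, 6.44 and 6.94 for the members. For the 40 leukocyte markers together they were 7.31, 7.48 and 7.27. Macrophage markers were highest on wild-type array 2 (7.96, against 7.13 and 6.98), where 27 of 33 members, and 34.8% of all genes, had their lowest wild-type value. By class mean, pan-leukocyte (8.84, 8.66 and 8.91) and T and NK cell markers (7.35, 6.99 and 7.46) had the order of the members. So did the mean of the B cell markers (8.93, 8.71 and 9.01). Among the B cell genes Cd22 had that order, while Cd79a and Cd79b were highest on wild-type array 1 and Ms4a1 was lowest there. Ncr1, of the T and NK cell markers, was also lowest on wild-type array 1 (4.78, 5.31 and 5.31). Neutrophil markers (6.87, 6.85 and 6.55) and dendritic cell markers (5.41, 5.77 and 5.49) did not have that order. The mean of 3 measured erythroid markers was also high on wild-type array 3 (7.72, against 5.46 and 5.997). Car1 and Slc4a1 were highest on that array, while Alas2 measured 6.27, 7.23 and 7.21 in wild type. On the knockout arrays acinar markers had a mean of 10.14, 10.92 and 10.97, and the members 6.86, 6.39 and 6.35. The part of any of these cell types in the members' values was not tested.

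**Figure D4:**
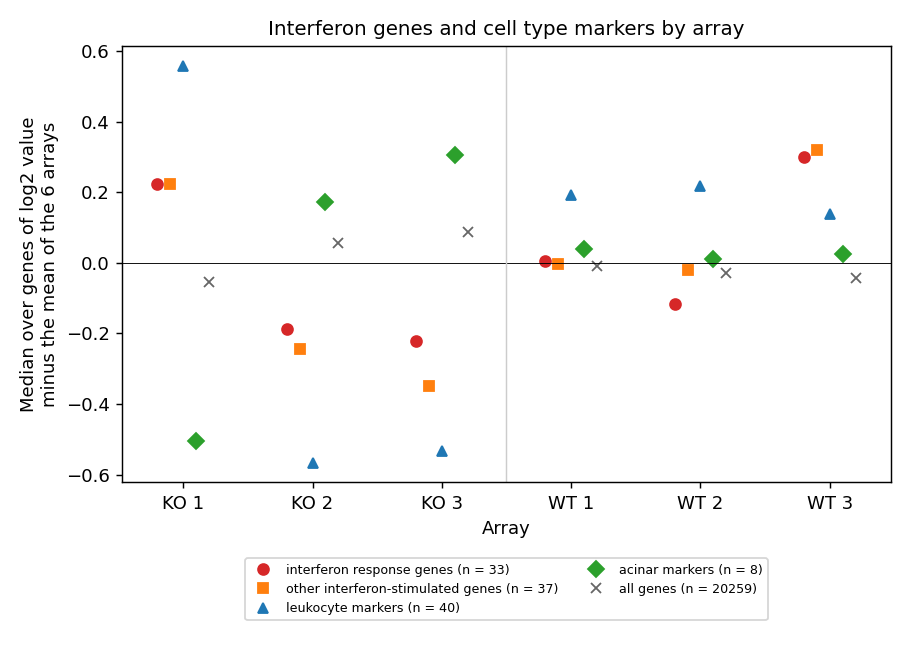
Median over the genes of each list of the log2 value minus the mean of the 6 arrays (y axis), on each array (x axis; KO, knockout; WT, wild type). Interferon response genes (red) are high on knockout array 1 (0.22) and wild-type array 3 (0.30), while leukocyte markers (blue) are at 0.56 on knockout array 1 and 0.14 on wild-type array 3.

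Further genes of the pathway were read from lists that do not overlap the members. Of 37 other interferon-stimulated genes 26 were lower and 11 higher, with a median of -0.20, and 3 had an unadjusted p under 0.05, against 38.3% of all genes lower and 3.49% at that p. Gbp8, a guanylate-binding protein, measured 4.94, 4.60 and 3.58 in knockout and 5.26, 5.09 and 5.70 in wild type, a difference of -0.98 (SE 0.35). Tgtp1, an interferon-inducible GTPase of mouse, measured 7.62, 7.12 and 6.93 in knockout and 7.85, 7.53 and 8.18 in wild type, a difference of -0.63 (SE 0.23). The groups separated for Gbp8 and overlapped slightly for Tgtp1. Except on wild-type array 3, Gbp8 lay below the array's median over genes (5.37 to 5.50 over the arrays). Of all genes 2.47% had every knockout array below every wild-type array. Ifitm3, which blocks virus entry from endosomes, was higher in knockout at 9.73, 9.79 and 9.84 against 9.40, 9.61 and 9.37, a difference of 0.33 (SE 0.12). None of the 3 passed the adjusted threshold (adjusted p = 0.907 in limma).

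Ligands and receptors had a median difference near 0. Of 15 measured genes for interferons, their receptors and JAK-STAT proteins, 8 were lower and 7 higher, against 38.3% of all genes lower. Their median was -0.01, with 0 at an unadjusted p under 0.05 in limma. Ifng, which encodes interferon gamma and is made by T and NK cells, measured 6.29, 5.79 and 5.72 in knockout and 6.58, 6.05 and 6.62 in wild type, a difference of -0.48 (SE 0.22). Beside it, the 7 measured T and NK cell markers had a median difference of -0.47. They ran from -0.72 (SE 0.24) for the T cell receptor gene Cd3g to -0.36. The part of T and NK cells in the Ifng values was not tested. Ifne, an epithelial interferon, measured 3.36, 3.12 and 3.52 in knockout and 3.04, 3.00 and 3.07 in wild type, a difference of 0.29 (SE 0.13). Every knockout array lay above every wild-type array for Ifne, as for 6.21% of all genes. Its values were low on all arrays, whose medians over genes were 5.37 to 5.50. The kinase gene Jak1 differed by -0.32 (SE 0.20).

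Sensors, brakes and MHC class I genes outside the list had no member at an unadjusted p under 0.05 in limma. Of all genes 38.3% were lower in knockout, beside the counts that follow. Of 15 nucleic acid sensors and adaptors 10 were lower, led by Sting1 (-0.36, SE 0.28), Tlr7 (-0.29, SE 0.23) and Ddx58 (-0.31, SE 0.25), which encodes RIG-I. Of 9 genes listed as negative regulators 8 were lower, by at most 0.27 on the log2 scale for Usp25. Pias1 was at -0.21 and the phosphatase gene Ptpn6 at -0.12. The list also held Isg20 (-0.05), which is an interferon-stimulated gene and not an established negative regulator. Of 8 MHC class I loading genes 7 were lower, and B2m, the invariant light chain of class I, measured 8.01, 7.49 and 7.34 in knockout and 7.93, 8.01 and 8.21 in wild type. Its difference was -0.44 (SE 0.19) and the groups overlapped only through knockout array 1. The chaperone genes Pdia3 and Calr differed by -0.16 (SE 0.12) and -0.18 (SE 0.14).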

How the data were processed

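The authors deposited log2 expression values for 115830 probe groups on 6 arrays. RMA and Partek are named in the submitters' processing notes, with neither versions nor a build given. RMA compresses small values, so differences of dim genes are understated. Detection calls and scan dates were not used here, and 3 arrays per group limit the precision. Platform annotation gave 1 symbol to 25539 rows, several to 2300 and none to 87991, and 24941 of the first kind matched RefSeq (GRCm38.p6) by gene number. Rows can also read close paralogs.

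Group differences were fitted with limma (version 3.58.1, R 4.3.3; lmFit and eBayes, without a block or a filter) on all 20259 genes, with Benjamini-Hochberg adjustment and a threshold of 0.05, and the fit was tested on simulated data. The alternatives were 2 normalizations, 2 row choices, a filter on dim genes, a variance trend, a block for the replicate number, and the omission of single arrays. Members, lists, tests and the rule for named genes were chosen with earlier results of these data known. By that rule 14 members were to get per-array values (unadjusted p under 0.05, separated groups, 8 largest differences, 4 highest and 4 lowest means, 6 widest ranges), and each pathway list 3 named genes. The per-array values of Gbp3, Irf8, Usp18 and Ncr1, and Cd3g, were chosen after values were seen. Deviations of same-numbered arrays from their group means had r across genes of 0.04, 0.14 and -0.15. Differently numbered arrays gave r from -0.18 to 0.15. With so few arrays these values cannot show if the numbers pair the samples, and the main fit treated them as unpaired.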

Additional observations from a re-analysis of the deposited data

How the results depend on the processing

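No alternative called a member: the count at an adjusted p under 0.05 in limma was 0 with all arrays and in every alternative, and 2 genes outside the list passed without knockout array 1. Members at an unadjusted p under 0.05 numbered 1 with all 6 arrays and 0 to 10 when single arrays were left out: 10 without knockout array 1, 1 without wild-type array 2 and 0 in the other 4 such fits. Over these fits the median member difference ran from -0.31 (without knockout array 1) to -0.0083 (without wild-type array 3), and the members lower in knockout from 17 to 27. The replicate block gave 1 member at an unadjusted p under 0.05 and changed no call.

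Of the 33 members, 19 kept their sign in every fit that left out 1 array (15 lower, 4 higher). The other 14 crossed 0, with lowest and highest values of -0.0768 and 0.0895 for Ifit2, -0.32 and 0.0142 for Irf7, -0.31 and 0.23 for Irf8, -0.40 and 0.0353 for Oasl1, -0.24 and 0.0286 for Stat2, -0.64 and 0.12 for Mx1, -0.0309 and 0.23 for Rsad2, -0.20 and 0.44 for Usp18, -0.085 and 0.18 for Cmpk2, -0.23 and 0.0541 for Parp9, -0.32 and 0.11 for Trim25, -0.0772 and 0.11 for Psmb8, -0.33 and 0.0584 for Tap1, and -0.21 and 0.14 for Xaf1. Among the other alternatives, 10 of 231 values changed sign. A further quantile normalization gave -0.0526 for Ifit2 and 0.0014 for Trim25. With arrays shifted to 1 median Ifit2 was -0.0791, Irf8 -0.0559, Rsad2 -0.0192, Cmpk2 -0.0599 and Psmb8 -0.0621. Averaging rows gave 0.0004 for Irf7 and 0.19 for Xaf1, and the row of largest interquartile range gave 0.44 for Xaf1. The cause was not tested.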
